A study of Homo sapiens with 54 samples.

Results

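The 10 genes described here are 3 ligands of the bone morphogenetic protein (BMP) family, BMP2, BMP4 and BMP7, and 7 genes known as transcriptional targets of the pathway, namely ID1, ID2, ID3, ID4, MSX1, MSX2 and BAMBI. They were chosen by name, and their probes were found through the RefSeq accession that the array files give for each probe. They are 10 of the 19720 genes that could be named from a RefSeq or Ensembl accession, and they have 13 probes among the 42405 on the array. BMP7 has 3 probes and ID2 has 2, and the probe with the highest mean signal stands for the gene.

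BMPs are secreted factors that bind pairs of type I and type II receptor kinases, which phosphorylate SMAD1, SMAD5 and SMAD9. These SMADs enter the nucleus with SMAD4 and bind regulatory DNA of genes such as the ID genes, whose short proteins hold E proteins and other basic helix-loop-helix factors away from DNA. In human pluripotent stem cells, added BMP4 is known to drive differentiation, and media for undifferentiated culture rely on FGF and on TGF-beta or activin signals.

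The RNA came from 27 cultures measured on 2 one-colour arrays each. Four-day cultures of H1, a human embryonic stem (ES) cell line, were grown without feeder cells on Matrigel in E8 Medium, which is Essential 6 Medium with 2 ng/mL TGF-beta 1 and an FGF. In each of 3 numbered experiments there was a pre-culture with bFGF and cultures of 4 days with 100 ng/mL bFGF, with 100 ng/mL FGFC, a chimera of human FGF1 and FGF2, or with no FGF. The titles place the arms of experiment 2 at passage 59 and its pre-culture at passage 49, where experiments 1 and 3 differ by 1 passage, so that the link of this pre-culture to its arms is in doubt. For arrays of experiment 3, the title and another label give different passages, and the title was used. The cultures without FGF still had TGF-beta 1, and no BMP is named among the additions to this medium. Long-term culture was done in 5 systems with a pre-culture, 1 culture with bFGF and 1 with FGFC. These were H1 in E8 Medium for 30 days at 100 ng/mL, H1 in medium conditioned by mouse embryonic fibroblasts (MEF-conditioned medium) for 41 days at 5 ng/mL, the ES line KhES-1 on MEF feeders for 30 days at 5 ng/mL, the induced pluripotent stem (iPS) line 201B7 on MEF feeders for 50 days at 10 ng/mL, and the iPS line 253G1 in E8 Medium for 36 days at 100 ng/mL. For the first of these systems the H1 pre-culture of experiment 1 served as its pre-culture. One further H1 culture was differentiated through embryoid bodies.

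Levels are given as normalized signals, which are log2 signals minus the 75th percentile of the array, so that 0 is the level of a probe at that percentile and a difference of 1 is 2-fold. The share of probes well above background was 56.2% to 79.2% per array. Of the genes listed for undifferentiated cells, 6 of 7 had a named probe, and all 6 were well above background on all 54 arrays. Their mean normalized signal was 4.98 to 6.22 in the 26 cultures not labelled as differentiated and 2.02 in the differentiated one. MSX1 was well above background on 20 of 54 arrays and MSX2 on 10 of 54, so low values of these genes carry little information. Nothing in the labels says that the 3 experiments were independent thaws, so p-values measure the spread between these cultures. In such bulk RNA a smaller number of cells that express a gene and less RNA per cell cannot be told apart.

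The sequences upstream of the start sites are shown for the 4 ID genes, which rose together without FGF, and for BAMBI, which did not. Each line holds the 250 bases before the RefSeq start on build GRCh38.p14, read 5′ to 3′ on the gene's strand. They lie at chr20:31605039-31605288 (plus strand) for ID1, chr2:8681806-8682055 (plus) for ID2, chr1:23559502-23559751 (minus) for ID3, chr6:19837120-19837369 (plus) for ID4 and chr10:28677271-28677520 (plus) for BAMBI. Capitals mark GGCGCC, a palindrome, and CAGAC or its reverse complement GTCTG, 2 short motifs known to be bound by SMAD proteins.
ID1: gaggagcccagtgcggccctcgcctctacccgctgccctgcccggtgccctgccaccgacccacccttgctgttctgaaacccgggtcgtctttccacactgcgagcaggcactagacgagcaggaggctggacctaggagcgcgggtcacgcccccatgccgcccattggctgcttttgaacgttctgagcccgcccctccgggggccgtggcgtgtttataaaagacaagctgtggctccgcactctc
ID2: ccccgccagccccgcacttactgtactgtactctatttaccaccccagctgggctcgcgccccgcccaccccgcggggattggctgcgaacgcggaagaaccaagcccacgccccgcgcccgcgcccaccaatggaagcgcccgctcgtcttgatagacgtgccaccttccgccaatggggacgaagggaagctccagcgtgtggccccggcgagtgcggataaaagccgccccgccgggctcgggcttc
ID3: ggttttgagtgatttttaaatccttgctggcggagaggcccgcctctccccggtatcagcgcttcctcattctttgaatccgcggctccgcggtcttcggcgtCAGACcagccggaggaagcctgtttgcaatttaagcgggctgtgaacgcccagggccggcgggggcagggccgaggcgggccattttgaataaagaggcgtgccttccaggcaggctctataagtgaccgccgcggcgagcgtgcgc
ID4: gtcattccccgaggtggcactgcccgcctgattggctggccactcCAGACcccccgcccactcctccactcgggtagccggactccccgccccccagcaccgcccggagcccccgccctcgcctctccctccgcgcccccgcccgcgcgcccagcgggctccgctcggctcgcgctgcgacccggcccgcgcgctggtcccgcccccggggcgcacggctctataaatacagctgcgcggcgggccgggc
BAMBI: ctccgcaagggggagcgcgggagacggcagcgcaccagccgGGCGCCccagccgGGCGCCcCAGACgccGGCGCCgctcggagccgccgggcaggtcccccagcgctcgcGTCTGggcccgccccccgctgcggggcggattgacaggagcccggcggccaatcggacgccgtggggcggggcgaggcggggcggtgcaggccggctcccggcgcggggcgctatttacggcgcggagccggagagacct
GGCGCC was found in 16.4% of the 35116 RefSeq windows of this length and CAGAC on either strand in 38.0%. The BAMBI window held 3 copies of GGCGCC and 2 of CAGAC, and there no motif of one kind overlapped one of the other. CAGAC stood once in the ID3 window and once in the ID4 window. Neither motif was found in the windows of ID1, ID2, MSX1 and MSX2. Sequence outside the 250 bases was not searched, so an empty window does not show that a gene lacks these motifs. BMP4 has 3 RefSeq starts and so 3 windows, and GGCGCC was found in 1 of them and CAGAC in 2. In all, 8 of the 10 genes had a window, and 2 of their 10 windows held GGCGCC and 5 held CAGAC.

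The first question was how these genes respond when FGF is taken out of E8 Medium for 4 days. Without FGF, 8 of the 10 genes were higher than with bFGF at an adjusted p under 0.05, where 5.54% of all probes were higher, and 0 of the 10 were lower, where 7.19% of all probes were lower. The rises ran from 2.21-fold for ID3 to 29.3-fold for ID4. The exceptions were MSX1 and BAMBI. Against FGFC the same 8 genes were higher, where 4.71% of all probes were higher, but the cultures without FGF are shared by the 2 comparisons. The median difference of the 10 genes was 2.72 against bFGF on the log2 scale, beside 0.01 over all probes. All 3 cultures without FGF lay above all 11 H1 cultures kept in E8 Medium with bFGF or FGFC, pre-cultures and 30-day cultures included, for 7 of the 10 genes, beside 5.89% of all probes.

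**Figure D1:**
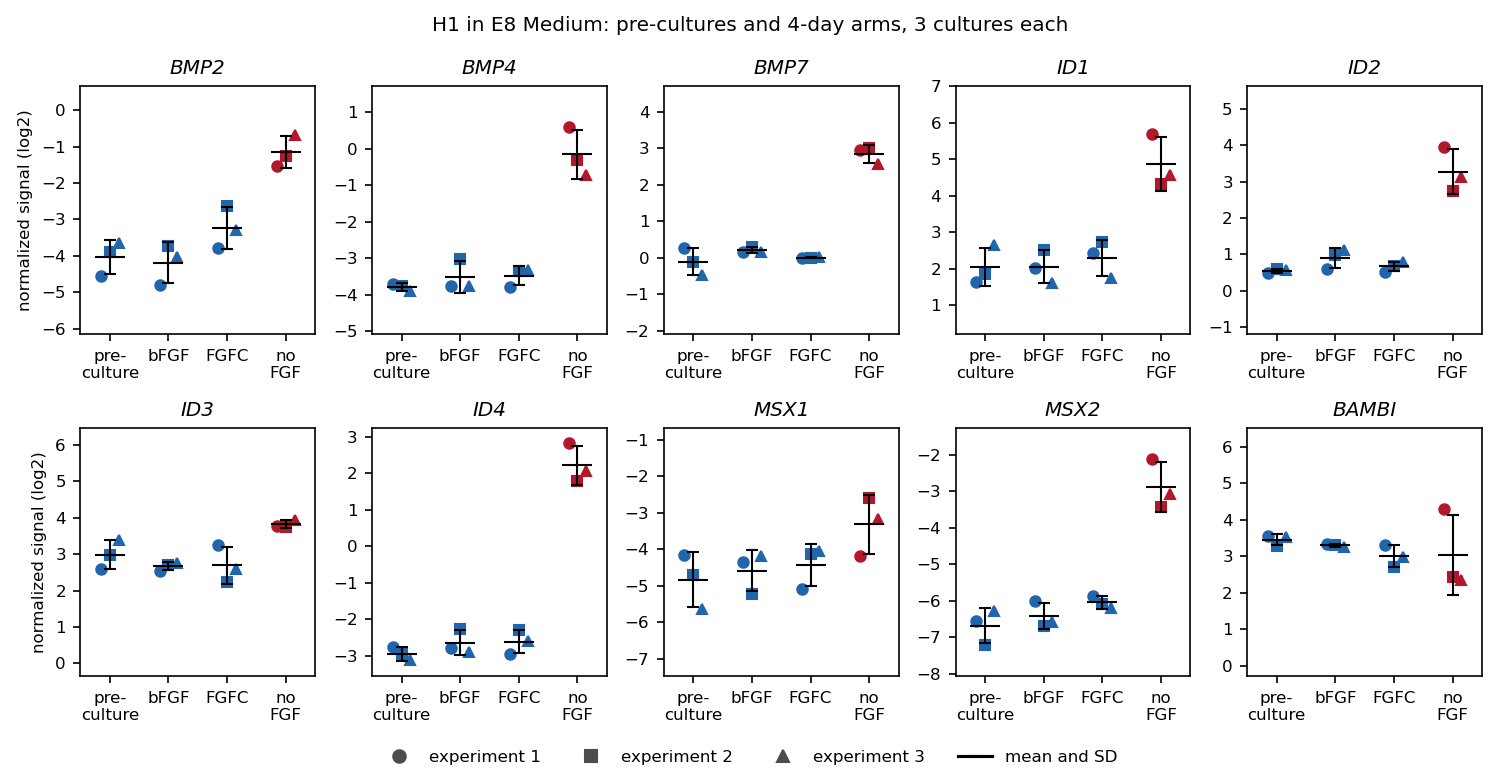
Normalized signal (log2, vertical axis) of the 10 genes in the 12 H1 cultures of the 4-day experiments, by arm (pre-culture, bFGF, FGFC, no FGF), where each point is 1 culture and the bar is the mean with its SD over 3 cultures. The cultures without FGF stand above the others for BMP2, BMP4, BMP7, the ID genes and MSX2, while the BAMBI points without FGF spread from 2.36 to 4.30.

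Among the ligands, BMP4, which is best known for driving mesoderm and extraembryonic fates, had normalized signals of 0.59, -0.30 and -0.73 in experiments 1, 2 and 3 without FGF. With bFGF they were -3.76, -3.01 and -3.77, and with FGFC -3.78, -3.35 and -3.32. The lowest culture without FGF was thus well above the highest with FGF. The difference from bFGF was 3.37 (SE 0.32, 10.3-fold, adjusted p = 5.82e-05) and from FGFC 3.34 (adjusted p = 7.00e-05). With normexp background correction these were smaller, at 2.48 and 2.41, and both passed the test.

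BMP2, a close relative of BMP4 that acts through the same receptors, was at -1.53, -1.27 and -0.68 without FGF. It was at -4.80, -3.72 and -4.03 with bFGF and at -3.78, -2.64 and -3.30 with FGFC. The groups did not overlap, but the gap to FGFC was the narrower one. The difference was 3.03 against bFGF (SE 0.38, 8.15-fold, adjusted p = 3.66e-04) and 2.08 against FGFC (4.22-fold, adjusted p = 0.00456), and with normexp 1.87 and 1.37, both past the test. Without experiment 3, the difference from FGFC was 1.81 and did not pass the test (adjusted p = 0.160).

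BMP7, of another branch of the family, had a higher signal than BMP2 and BMP4 from its own probe, which is no measure of relative abundance between genes. Its values were 2.95, 3.01 and 2.56 without FGF, 0.17, 0.29 and 0.15 with bFGF and 0.00, -0.02 and 0.01 with FGFC. The cultures of each arm lay close together, and the difference was 2.64 against bFGF (SE 0.20, 6.22-fold, adjusted p = 1.14e-05) and 2.85 against FGFC (adjusted p = 8.24e-06). The other 2 probes of BMP7 were also called against bFGF, with differences of 2.07 and 2.39.

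The ID proteins lack a DNA-binding region, and the 4 genes rose by unequal amounts. ID4 was at 2.82, 1.78 and 2.07 without FGF and at -2.78, -2.26 and -2.91 with bFGF. It was at -2.94, -2.30 and -2.61 with FGFC. Its difference of 4.87 from bFGF (SE 0.28, 29.3-fold, adjusted p = 2.11e-06) was the largest measured among the 10 genes, and from FGFC it was 4.84 (adjusted p = 2.74e-06). With normexp the difference from bFGF was 4.17.

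ID1, a much used readout of BMP signalling, was at 5.70, 4.33 and 4.58 without FGF, at 2.04, 2.53 and 1.62 with bFGF and at 2.43, 2.72 and 1.74 with FGFC. Experiment 1 gave the highest value without FGF, and the arms with FGF overlapped each other. The difference was 2.81 against bFGF (SE 0.41, 7.02-fold, adjusted p = 0.00106) and 2.57 against FGFC (adjusted p = 0.00214). ID2 stood at 3.94, 2.74 and 3.12 without FGF and at 0.60, 1.00 and 1.11 with bFGF. With FGFC it stood at 0.53, 0.70 and 0.79. It rose by 2.36 against bFGF (SE 0.27, 5.15-fold, adjusted p = 2.00e-04) and by 2.60 against FGFC (adjusted p = 1.23e-04), and its second probe gave 2.44 against bFGF.

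ID3 had the smallest rise of the family. Its signals were 3.77, 3.74 and 3.94 without FGF, 2.54, 2.71 and 2.77 with bFGF and 3.25, 2.23 and 2.58 with FGFC. The 3 values without FGF lay close together, and the highest H1 culture with FGF in E8 Medium, the 30-day culture with FGFC at 3.76, fell among them. The difference was 1.15 against bFGF (SE 0.27, 2.21-fold, adjusted p = 0.0153) and 1.13 against FGFC (adjusted p = 0.0187). The call against bFGF was lost, at about the same difference, with the slide as a block (1.299, adjusted p = 0.0502), without experiment 2 (1.205, adjusted p = 0.107) and without experiment 3 (1.134, adjusted p = 0.195). That against FGFC was lost without experiment 2 (0.940, adjusted p = 0.246), without experiment 3 (1.015, adjusted p = 0.289) and when only the 2 arms were fitted (1.129, adjusted p = 0.0690).

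MSX2, a homeobox factor of neural crest and of early extraembryonic lineages, was not well above background on any of the 6 arrays with bFGF or of the 6 with FGFC. Without FGF it was well above background on 6 of 6 arrays, at -2.11, -3.43 and -3.09. This places it at least 4.17-fold higher than with bFGF (adjusted p = 7.23e-05) and at least 3.29-fold higher than with FGFC (adjusted p = 1.82e-04). These bounds compare the mean without FGF with the lowest signal that was well above background on each array of the other arm, or with the probe's own signal where that was higher. With normexp the fitted differences were 1.12 against bFGF and 1.08 against FGFC on the log2 scale, which is less than these bounds, and both passed the test.

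MSX1, its paralog, was at -4.18, -2.59 and -3.18 without FGF, on 5 of 6 arrays well above background. With bFGF it was at -4.34, -5.23 and -4.20, on 4 of 6. The value of experiment 1 without FGF lay close to the values with bFGF and the other 2 lay above them. The difference of 1.27 (95% confidence interval 0.20 to 2.35, adjusted p = 0.126) did not pass the test. It passed with normexp background correction (0.62, adjusted p = 0.0417), with quantile normalization (1.47, adjusted p = 0.0468) and with a floor under the signals (1.17, adjusted p = 0.0405). Against FGFC the difference was 1.11 (adjusted p = 0.205).

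BAMBI encodes a pseudoreceptor without a kinase that dampens BMP and TGF-beta signals. It was at 4.30, 2.43 and 2.36 without FGF, at 3.35, 3.31 and 3.26 with bFGF and at 3.31, 2.71 and 2.98 with FGFC. Experiment 1 without FGF was the highest of these 9 cultures and experiments 2 and 3 without FGF the lowest. The difference from bFGF was -0.28 (95% confidence interval -1.20 to 0.65, adjusted p = 0.729), with an SD of 1.10 over the 3 cultures without FGF against 0.04 with bFGF. Without experiment 1 it was -0.89 and passed the test (adjusted p = 0.0396). Against FGFC the difference was 0.03 (adjusted p = 0.981).

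Other genes of the pathway were taken from lists that were chosen with earlier results of these data known, so the counts describe these lists only. Against bFGF, 5.54% of all probes were higher without FGF and 7.19% lower at the adjusted threshold. Of 14 secreted or intracellular inhibitors, 8 rose without FGF against bFGF and 0 fell, with a median difference of 0.98. GREM1, NOG and FST, which bind BMPs or activins outside the cell, were higher by 5.14, 4.17 and 4.00 on the log2 scale. With bFGF they were above background on 3, 2 and 6 of 6 arrays, so the first 2 values are partly set by background. Of 10 transcription factor genes known to respond to BMP, 6 rose and 0 fell, with a median of 2.35. DLX5 was at least 215-fold, GATA3 at least 11.1-fold and DLX3 at least 5.40-fold higher. Of the receptors and SMADs, 1 of 11 was higher at the adjusted threshold (SMAD9, by 0.75) and 0 lower, with a median of 0.27. An unadjusted p of limma under 0.05 was found for 6 of 11, beside 10700 of 42405 probes.

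Of 10 other ligand genes of the family, 1 rose (BMP5, by 2.67, above background on 5 of 6 arrays without FGF and 1 of 6 with bFGF) and 1 fell (BMP6, by 1.57), with a median of -0.07. The 3 E proteins, the partners that ID proteins hold, gave 0 calls in either direction and a median of 0.36. Against FGFC the counts were the same in each list except the receptors and SMADs, of which SMAD9 and SMAD1 rose by 0.93 and 0.84.

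Markers of other states moved in the same cultures. Of the 6 measured genes of undifferentiated cells, NANOG (by 1.71) and POU5F1 (by 1.08) fell against bFGF, SOX2 (by 1.32) and SALL4 (by 0.82) rose, and the mean over the list was 5.04 to 5.46 without FGF and 5.12 to 5.37 with bFGF. The mean over 9 embryoid body derivative markers was -2.52 to -1.78 without FGF and -2.97 to -2.76 with bFGF. Of these 9, 3 rose against bFGF and 2 fell. PAX6, a factor of neural precursors, was at least 27.6-fold higher, ACTA2 and TUBB3 rose by 2.74 and 1.73, TNNT2 and PDGFRB fell by 2.65 and 1.01, and ALB, TTR and SOX1 were not above background on every array without FGF. The mean over 7 amnion and trophoblast markers was -3.20 to -3.09 without FGF and -3.86 to -3.67 with bFGF, with 3 of the 7 higher and 1 lower against bFGF and 2 and 1 against FGFC. VTCN1 was at least 3.15-fold higher and IGFBP3 rose by 2.27. GABRP fell by a fitted 3.71, with 4 of 6 arrays above background without FGF and 6 of 6 with bFGF, and CGA, GABRP, ISL1 and TFAP2B were not above background on every array without FGF. Of the 5 fibroblast markers, 0 rose and 1 fell, and their mean was -2.68 to -2.56 without FGF and -2.65 to -2.27 with bFGF. The share of probes well above background was 59.6% to 66.5% per array without FGF and 66.1% to 72.8% with bFGF. The part of these shifts in the changes of the BMP genes was not tested.

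The next question was whether FGFC and bFGF, used at the same dose, gave different levels of these genes. After 4 days, 0 of the 10 genes differed at an adjusted p under 0.05 in limma, where 0% of all probes did. At an unadjusted p under 0.05 limma gave 1 of the 10 genes and 1262 of 42405 probes. The 95% confidence interval of the difference lay within 2-fold in both directions for 5 genes, BMP4, BMP7, ID2, ID3 and ID4. The lists of other ligands, receptors and SMADs, inhibitors, transcription factors and E proteins gave 0 calls as well, at 4 days and in long-term culture. For ID1 the interval at 4 days was -0.67 to 1.15 around a difference of 0.24, and for BAMBI -1.23 to 0.62 around -0.31, so that differences of 2-fold could not be set aside there.

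BMP2 was the 1 gene with an unadjusted p under 0.05 at 4 days. With FGFC it was higher than with bFGF by 1.03, 1.08 and 0.74 in experiments 1, 2 and 3. The mean difference was 0.95 (95% confidence interval 0.12 to 1.78, and 0.50 to 1.16 under the alternatives). The unadjusted p of limma was 0.0287 and the adjusted p was 1.00, so it failed the correction. In long-term culture the same difference was 1.19 for H1 in E8 Medium, 1.38 for H1 in MEF-conditioned medium and 1.16 for 253G1, but -0.35 for KhES-1 and -0.04 for 201B7. The 3 systems without feeder cells were thus above 0 by more than 2-fold and the 2 on feeders were not, a split that was seen in the values and was not tested. The mean over the 5 systems was 0.67 (95% confidence interval -0.05 to 1.38, adjusted p = 0.704), and 0.31 to 0.92 under the alternatives.

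**Figure D2:**
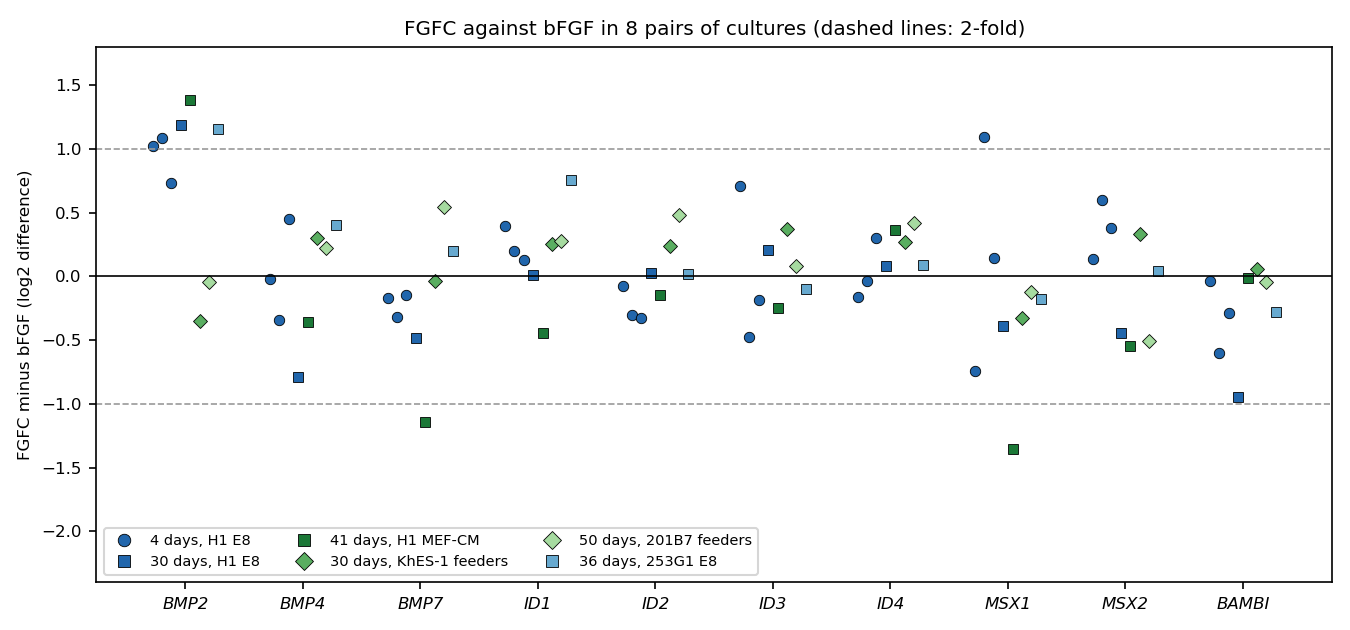
Difference in normalized signal (log2) of FGFC minus bFGF within each experiment or system, with 8 points per gene (3 experiments of 4 days and 5 long-term systems). BMP2 lies above 0 in 6 of 8 pairs, from -0.35 to 1.38, and most points of the other genes lie within 2-fold of 0.

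Long-term culture with FGFC gave 0 of 10 genes past the threshold in limma, where 0% of all probes passed, and 2 genes and 2508 probes had an unadjusted p under 0.05. Here the interval lay within 2-fold for 9 of the 10 genes, all but BMP2. For MSX1 and MSX2 the interval describes signals mostly near background. MSX2 was well above background on 1 of 10 arrays with FGFC and 0 of 10 with bFGF. Another probe of BMP7 gave an interval of -1.15 to 0.20, which reaches beyond 2-fold. No share of all probes is given for the interval counts at either duration. ID4 was higher with FGFC in 5 of 5 systems, with a mean difference of 0.24 (95% confidence interval 0.02 to 0.47, adjusted p = 0.704). MSX1 was lower in 5 of 5 systems by a mean of 0.47, but it was well above background on 1 of 10 arrays with bFGF and 1 of 10 with FGFC.

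Over both durations there were 80 differences between a culture with FGFC and its partner with bFGF, of which 8 were 2-fold or more, 5 of them from BMP2. No share of all probes is given for these pairs, so the count describes the 10 genes only. The other 3 were BMP7 in MEF-conditioned medium (-1.14), MSX1 in the same system and MSX1 in experiment 2. The size of these MSX1 differences is set in part by background. MSX1 was well above background on 0 arrays with FGFC in that system and on 0 with bFGF in experiment 2. ID1 was above 0 in 7 of 8 pairs, from -0.45 to 0.75, and BAMBI in 1 of 8, from -0.95 to 0.06. Whether the difference between FGFC and bFGF changed from 4 days to long-term culture was tested by an interaction, which called 0 of the 10 genes in limma, where 0% of all probes were called. At an unadjusted p under 0.05 this test gave MSX2 (adjusted p = 0.923) and 2275 probes in all. At 4 days MSX2 was well above background on 0 of 6 arrays with FGFC and 0 of 6 with bFGF. In long-term culture it was so on 1 of 10 and 0 of 10, so no difference is given.

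The systems of long-term culture stood at different levels whichever FGF was used. Sets of 3 H1 cultures (pre-culture, long-term bFGF and long-term FGFC) could be compared between MEF-conditioned medium and E8 Medium. The 3 cultures of a set descend from the same pre-culture. The p-values of this comparison therefore measure the spread between related cultures, not between independent cultures in each medium. In MEF-conditioned medium 5 of the 10 genes were higher, where 8.10% of all probes were higher, and 2 were lower, where 20.7% were lower. BMP4, ID4, BAMBI, ID1 and BMP7 were the higher genes and ID3 and MSX1 the lower ones. The counts behind these shares, 3434 probes higher and 8791 lower, depended on the scaling, and quantile normalization gave 3418 higher and 3222 lower. The median difference over all probes was -0.15. MEF-conditioned medium held 5 ng/mL of FGF and E8 Medium 100 ng/mL, and no slide held arrays of both media, so that medium, dose and slide cannot be told apart.

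**Figure D3:**
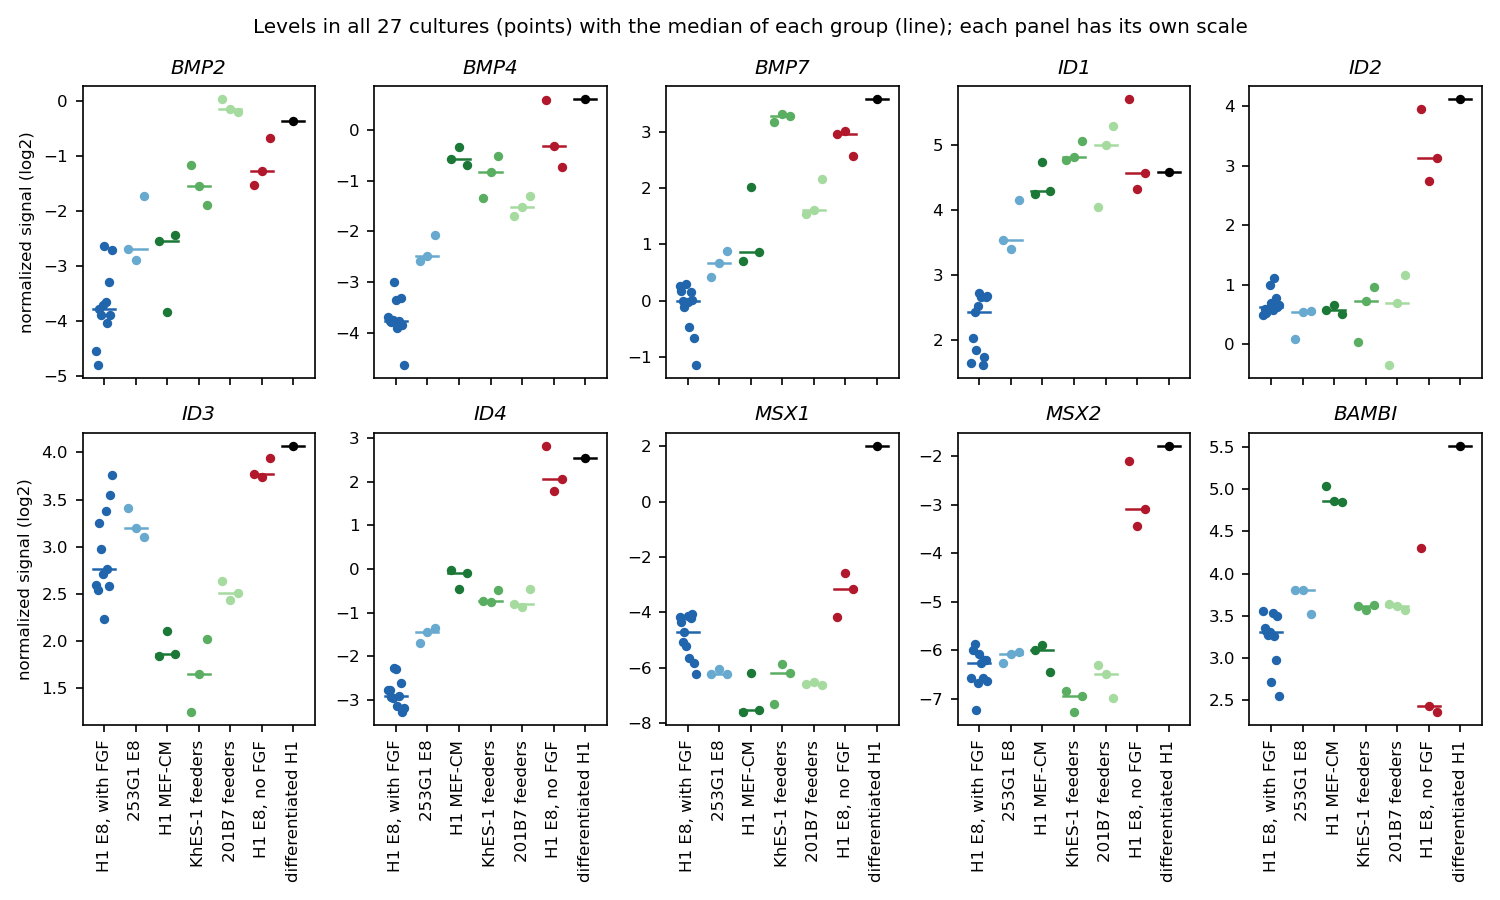
Normalized signal (log2) of the 10 genes in all 27 cultures, grouped by cell line and culture system, where each point is 1 culture, the line is the median of a group and each panel has its own scale. BMP4 and ID4 are lowest in the E8 Medium cultures with FGF, and ID2 stays between -0.35 and 1.17 in the 23 undifferentiated cultures with FGF.

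BMP4 was at -0.57, -0.33 and -0.69 in MEF-conditioned medium in the pre-culture, with bFGF and with FGFC. H1 in E8 Medium stood at -3.70 in the pre-culture of experiment 1 and at -3.86 with bFGF and -4.65 with FGFC after 30 days. The levels in MEF-conditioned medium were thus near those of H1 in E8 Medium without FGF (-0.73 to 0.59). The difference between the media was 3.54 (SE 0.28, 11.6-fold, adjusted p = 4.02e-05), and 2.30 with normexp. ID4 was at -0.03, -0.46 and -0.09 in MEF-conditioned medium, higher by 2.89 (7.40-fold, adjusted p = 1.77e-05) or by 2.12 with normexp, and stayed below the cultures without FGF.

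ID1 was at 4.24, 4.74 and 4.29 in MEF-conditioned medium, 2.09 above E8 Medium (4.26-fold, adjusted p = 4.54e-04). BAMBI was at 5.04, 4.86 and 4.85, higher by 1.71 (3.28-fold, adjusted p = 3.08e-04), although it had not risen without FGF. ID3 went the other way, at 1.84, 2.10 and 1.85, lower by 1.37 (SE 0.26, 2.58-fold, adjusted p = 0.00305). The 4 ID genes therefore did not move as a group between the media, and ID2 differed by -0.01 (95% confidence interval -0.56 to 0.54, adjusted p = 0.981). The call for ID3 was lost without the bFGF cultures (-1.328, adjusted p = 0.0679) and without the FGFC cultures (-1.098, adjusted p = 0.0617).

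BMP7 was at 0.70, 2.02 and 0.87 in MEF-conditioned medium, with the culture with bFGF above the other 2. It was higher by 1.71 (3.27-fold, adjusted p = 0.00714). That call was lost when only the 6 H1 cultures were fitted (1.71, adjusted p = 0.0535), without the bFGF cultures (1.22, adjusted p = 0.134) and without the FGFC cultures (1.555, adjusted p = 0.0636). The other 2 probes of BMP7 gave 2.05 (limma, adjusted p = 0.0064) and 1.61 (limma, adjusted p = 0.0457). For the latter probe the groups overlapped, and the difference between the pre-cultures was -0.43. BMP2 differed by 0.78 (adjusted p = 0.205). MSX1 was lower by 1.71 (adjusted p = 0.0285), but it was well above background on 1 of 6 arrays in MEF-conditioned medium and 2 of 6 in E8 Medium, and the call was lost under 8 alternatives, with -0.85 (adjusted p = 0.0782) without the pre-cultures. MSX2 differed by 0.35 (adjusted p = 0.238) and was above background on 2 and 0 of 6 arrays. Its direction turned with normexp (-0.17), and with a floor under the signals the turned difference passed the test (-1.08, adjusted p = 0.00124).

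In the same comparison the inhibitor list had 7 of 14 genes higher and 0 lower, with GREM1 higher by 3.87 on the log2 scale (above background on 6 and 2 of 6 arrays) and CER1 at least 3.18-fold higher. The receptor and SMAD list had 4 of 11 higher and 0 lower, among them BMPR2 by 0.99 and SMAD4 by 0.63. Of the transcription factors, 4 of 10 were higher, with TBX3 at least 1.86-fold and GATA3 at least 1.12-fold higher. TFAP2A was called lower but was not above background on any of these arrays, so no fold is given. Of the other ligands, BMP8B was higher by 1.01 and BMP6 lower, with a difference of -1.21. GDF6 and BMP10 were called lower too, but GDF6 was not above background on any of these arrays and BMP10 was above it on 2 of 6 and 1 of 6. None of the 3 E proteins passed the test (median -0.13). These list counts rest on the 75th percentile scaling and were not recomputed under the other scalings. The mean over the embryoid body derivative markers was -1.86 to -1.24 in MEF-conditioned medium. In E8 Medium it was -3.25 to -2.80 in the H1 pre-cultures and, after 30 days, -2.42 with bFGF and -3.24 with FGFC. The mean over the undifferentiated list was 5.60 to 5.67, and the fibroblast list was at -2.93 to -2.59, with COL3A1, LUM and DCN not above background on every array. The share of probes above background was 75.2% to 79.2% per array in MEF-conditioned medium. Their part in the levels of the BMP genes was not tested.

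Across cell lines, BMP4 and ID4 separated cultures exposed to MEFs from those in E8 Medium. All 9 cultures in MEF-conditioned medium or on feeders lay above all 14 cultures in E8 Medium with FGF for these 2 of the 10 genes, beside 0.689% of all probes, and 0 of the 10 lay below, beside 1.39%. BMP4 was -1.69 to -0.33 (median -0.82) in the former and -4.65 to -2.08 (median -3.73) in the latter. ID4 was -0.88 to -0.03 (median -0.49) and -3.27 to -1.36 (median -2.78). Here 253G1 in E8 Medium gave the upper end of the E8 Medium range for both genes, from -2.59 to -2.08 for BMP4. ID1 came close to the same split, at 4.04 to 5.29 with MEF exposure and at 1.62 to 4.16 in E8 Medium, where only the 253G1 culture with FGFC reached the other range. Within H1 alone the 3 cultures in MEF-conditioned medium lay above all 11 in E8 Medium with FGF for both genes, at -0.69 to -0.33 against -4.65 to -3.01 for BMP4 and at -0.46 to -0.03 against -3.27 to -2.26 for ID4. FGF dose and slide differ along with the medium and cannot be told apart from it.

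Each ligand had its own order across the lines. BMP2 was highest in 201B7 on feeders, at 0.03, -0.16 and -0.20 in the pre-culture, with bFGF and with FGFC, above the differentiated culture and above H1 without FGF. KhES-1 came next among the lines with FGF, at -1.17, -1.54 and -1.89, a range that overlapped H1 without FGF above it and 253G1 (-2.89 to -1.73) below it. Among the cultures other than the differentiated one, BMP7 was highest in KhES-1, at 3.18, 3.31 and 3.28, above 201B7 at 1.54, 1.61 and 2.16. ID2 was -0.35 to 1.17 in the 23 undifferentiated cultures with FGF, and all 3 cultures without FGF lay above them. The fibroblast markers had a mean of -0.19 to 1.04 in 201B7 and of -2.42 to -1.97 in KhES-1, both grown on mouse feeders, and their part in these levels was not tested.

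The differentiated H1 culture was a single culture, so its differences have no replicate check and no test. All 10 genes were 2-fold or more above the mean of the 3 H1 pre-cultures, where 14.3% of all probes were. ID3, at 1.09, was the nearest to the threshold and fell short of it against the 30-day culture with bFGF (0.52), on the second arrays alone and without the pre-culture of experiment 1. With normexp background correction the difference was 2.42 in place of 3.66 for BMP2, 3.31 in place of 4.40 for BMP4 and 4.71 in place of 5.50 for ID4. MSX1 was at 2.01 there against -5.64 to -4.16 in the pre-cultures, a difference of 6.84. In the pre-cultures it was well above background on 4 of 6 arrays, and with normexp background correction the difference was 4.93. In the 30-day culture with bFGF it was not well above background (0 arrays), so no difference from that culture is given. MSX2 was at -1.79, at least 10.1-fold higher, while the fitted difference with normexp was 1.62 on the log2 scale. BAMBI stood at 5.51 against 3.28 to 3.55, the highest value of the 27 cultures.

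BMP2, BMP4 and BMP7 were at -0.37, 0.61 and 3.57 in the differentiated culture, and ID1, ID2, ID3 and ID4 at 4.59, 4.11, 4.07 and 2.54. Set beside the mean of the 3 cultures without FGF, the genes 2-fold or more higher in the differentiated culture were MSX1 by 5.32, BAMBI by 2.48 and MSX2 by 1.08. No share of all probes is given for this comparison, so these values describe the 10 genes only. The ligands and the ID genes differed by -0.28 (ID1) to 0.84 (ID2), and ID1 and ID4 lay within the range of the cultures without FGF. Undifferentiated markers had a mean of 2.02 in this culture against 5.04 to 5.46 without FGF, and fibroblast markers 4.23 against -2.68 to -2.56. By the same 2-fold rule, 9 of 14 inhibitors and 9 of 10 further transcription factors were higher than in the pre-cultures and 1 of each list was lower, with 3 of 11 receptors and SMADs, 2 of 10 other ligands and 0 of 3 E proteins higher.

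**Figure D4:**
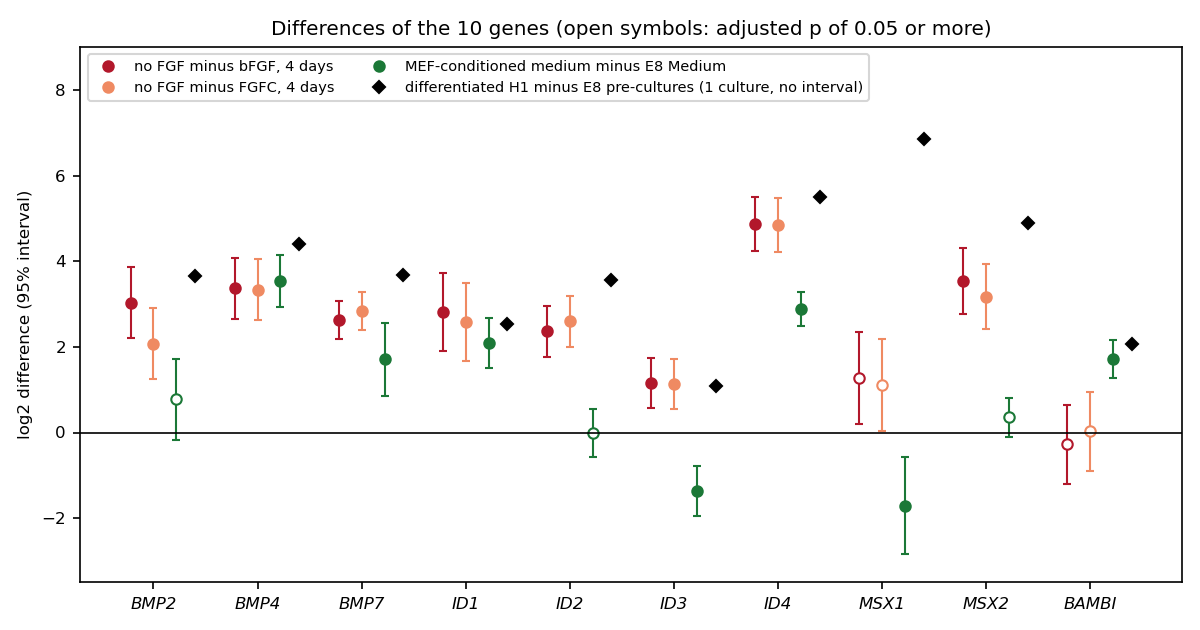
Difference in normalized signal (log2, vertical axis) of each of the 10 genes without FGF against bFGF, without FGF against FGFC, in MEF-conditioned medium against E8 Medium (points with 95% confidence intervals from limma, open where the adjusted p was 0.05 or more) and in the differentiated culture against the mean of the H1 pre-cultures (diamonds, 1 culture and no interval). Differences without FGF are above 0 and filled for 8 genes, ID3 and MSX1 are below 0 in MEF-conditioned medium, and the drawn MSX2 differences are fitted values, since MSX2 was not above background in the E8 Medium arms with FGF.

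Genes with the pattern most like that of ID1 over the 27 cultures were EML1 (Pearson's r = 0.93), CEND1 (0.92), SMC2 (0.92), BIK (0.91) and C15orf61 (0.89). Their r stayed at 0.92 to 0.93 over the 23 undifferentiated cultures with FGF. For MSX2 the nearest genes were MOK (0.96), HAPLN1 (0.93), PHACTR1 (0.93), TMEM79 (0.92) and DLK1 (0.91), and over the 23 cultures with FGF their r was -0.10 to 0.47, where MSX2 was near background. Among the 10 genes themselves, BMP4 and ID4 had an r of 0.93 over 27 cultures and 0.98 over the 23, and BMP4 and ID3 had -0.12 and -0.73. The points share cell lines, media and slides, and these coefficients describe them only.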

How the data were processed

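RNA of 27 cultures was measured on 54 one-colour Agilent arrays. The authors deposited, for each spot, the background-subtracted signal intensity of Feature Extraction 10.7.3.1 and raw signal and background intensities, all linear and without scaling across the arrays. Marks for outlier, saturated and well-above-background spots were deposited as other, yes or no, values. No counts exist, and the number of arrays limits the precision.

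Control spots (4259 of 62976) and spots marked as outliers (266 to 623 on each array) were removed. Signals below 1 were raised to 1, log2-transformed and averaged per probe, and each array's 75th percentile was subtracted. A probe counted as well above background where the mark held for a share of 0.5 or more of its spots. The 2 arrays of a culture were averaged (n counts cultures). Gene symbols came from RefSeq or Ensembl accessions (25715 of 42405 probes), and upstream sequences from RefSeq, GRCh38.p14.

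Comparisons used limma 3.58.1 in R 4.3.3 (lmFit, eBayes) with Benjamini-Hochberg adjustment over all probes at 0.05. The 4-day arms shared one fit, the long-term systems were blocks in another, and the media were compared in a fit of the 15 cultures of the 5 systems with the role (pre-culture, bFGF or FGFC) as a covariate. Differentiated H1 was described by a 2-fold rule. The tests were tested on simulated data. Marker and pathway lists, the 10 genes and the genes named (up to 3 largest called changes per list, and the 5 most alike ID1 and MSX2) were chosen with earlier results of these data known. One gene that the naming rule picked is not reported here. Alternatives changed the background correction, normalization, floor, arrays, blocks and cultures. Python 3.11.15 with matplotlib 3.10.9, numpy 2.4.6, scipy 1.17.1 and pandas 2.3.3 served for the rest.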

Additional observations from a re-analysis of the deposited data

Results flagged for a closer look

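The difference of MSX1 between FGFC and bFGF in MEF-conditioned medium, -1.35 on the log2 scale, lay far from those of the other 4 long-term systems, which were -0.39 for H1 in E8 Medium, -0.33 for KhES-1, -0.12 for 201B7 and -0.18 for 253G1. MSX1 was well above background on 1 of the 4 arrays behind this value. Without this system the mean difference was -0.25 (limma, adjusted p = 0.811). One such value was found among 10 genes examined, and chance alone sets apart about 1 in 20 groups.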

How the results depend on the processing

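Calls were counted under every alternative. Of the 10 genes, 7 to 9 passed without FGF against bFGF and 6 to 8 against FGFC, and 0 passed in the comparisons of FGFC with bFGF under any alternative run. In MEF-conditioned medium 7 passed, and 4 to 8 under the alternatives (4 to 6 when the pre-cultures, the bFGF or the FGFC cultures were left out). Of the 10 genes higher in the differentiated culture, MSX1, BAMBI and MSX2 were also 2-fold higher against the cultures without FGF. No share of all probes is given for that comparison, in which the difference of ID1 was -0.278. The deviations of same-numbered cultures from their arm means correlated at -0.161 to 0.515 in 18 pairs, of which 13 were over 0.1, among them all pairs of a culture without FGF with one of bFGF (0.189 to 0.317) or of FGFC (0.226 to 0.258), and 11 of 12 cultures correlated best with their own number. The 4-day arms of an experiment shared a slide, except for the bFGF culture of experiment 2. With the experiment as a replicate block, 8, 8 and 0 of the 10 genes passed in the 4-day comparisons, no call of the 10 genes changed, and the count of probes went from 5398 to 5746 against bFGF and from 4572 to 4921 against FGFC.

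Counts over all probes moved more. Without FGF against bFGF they were 9739 when only the 2 arms were fitted and 3552, 1939 and 1271 without experiment 1, 2 and 3. Against FGFC they were 2545 and 973 to 3836. For MEF-conditioned medium, 12225 probes were called, 4372 with normexp, 6640 with quantile normalization, 19087 with a floor, 5468 among probes well above background and 2908 to 14168 with cultures left out.

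Signs turned for differences that had not passed in the analysis reported. For BAMBI without FGF, the difference from bFGF was -0.889 to 0.0393 without an experiment, and that from FGFC was -0.0452 with quantile normalization, -0.0441 with the percentile over spots, -0.00191 on the second arrays and -0.446 to 0.356 without an experiment. Between FGFC and bFGF at 4 days, BMP4 gave -0.0743 on the first arrays, ID4 -0.0777 and MSX2 -0.0854 on the second, and MSX1 -0.410 with slides as blocks. Without an experiment BMP4 gave -0.183 to 0.215, ID3 -0.330 to 0.264, ID4 -0.0971 to 0.132 and MSX1 -0.301 to 0.619. In long-term culture with slides as blocks, BMP4 gave 0.311, BMP7 0.374 and ID3 -0.0082, and without a system BMP4 gave -0.158 to 0.140, BMP7 -0.364 to 0.0589 and ID3 -0.0139 to 0.141. In MEF-conditioned medium, ID2 gave 0.0197 with quantile normalization, 0.0402 with the percentile over spots, 0.0013 on the second arrays and -0.0567 to 0.0564 with cultures left out, and MSX2 gave -0.168 with normexp and -1.08 with a floor, the latter past the test (adjusted p = 0.00124). In the interaction, BMP4 gave 0.0705 on the first arrays, BMP7 -0.0073 with the percentile over spots and ID3 -0.0063 with quantile normalization. The cause of these shifts was not tested.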
